A study of Mus musculus with 11 samples.

Results

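The regions described here are 3428 of the 37256 peaks that the deposited unified list gives for H3K4me1 (9.20%) in mouse embryonic stem cells. They were chosen as peaks on chromosomes 1 to 19 that are under 5 kb wide, overlap no unified H3K9me3 or H3K27me3 peak, and have an edge within 1000 bp of either end of a protein-coding gene. Of 36588 peaks on these chromosomes, 28933 overlapped neither other mark and 26702 of those were under 5 kb wide. The peaks were set beside 14355 H3K4me1-only peaks of the same width limit inside genes and 8787 between genes. The choice used peak positions and gene positions and did not use DNA methylation, but the peaks come from the same H3K4me1 libraries whose methylation calls are described. With strand taken from the RefSeq promoter table, 1892 members lay at a gene start (the 5′ end of the gene), 881 lay only at a gene 3′ end, and 655 lay at genes for which that table gives no strand.

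The assay was CUT&Tag-BS, in which an antibody to a histone mark recruits Tn5 transposase, fused to protein A, and the DNA cut there is bisulfite converted before sequencing, so that each fragment reports both the mark and the methylation of its CpGs. All samples came from E14 cells, a line of 129/Ola background kept in serum with leukemia inhibitory factor (LIF), and the labels name no treatment or genotype difference between groups. H3K4me1 and H3K9me3 bisulfite samples from 250000 cells came as run 1 and run 2, read in pairs of 35 bp and 75 bp. H3K27me3 bisulfite samples came from 4000, 20000, 100000 and 250000 cells, and 1 library for each of the 3 marks was made without bisulfite as a control. The runs of a mark are repeat sequencing per the labels and were counted as 1 library, so there was 1 library per mark and cell number, and no test between marks over replicates was possible. Total CpG calls ranged from 378056 (H3K27me3, 4000 cells) to 37177077 (H3K27me3, 250000 cells), with 4917718 and 9690770 for H3K4me1 runs 1 and 2. Of 18 stem cell marker genes, 17 had an H3K4me1 peak at an end and 11 had a member, against 28.2% and 15.7% of all protein-coding genes. Of 12 markers of other lineages, 9 had an H3K4me1 peak at an end and 0 had a member. Members exclude by choice any peak that overlaps H3K27me3 or H3K9me3, so the member counts also depend on those marks. Whether this accounts for the 0 was not tested.

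H3K4me1, a single methyl group on lysine 4 of histone H3, is laid down by MLL-family enzymes, marks enhancers and the flanks of active promoters, and gives way to H3K4me3 at the start site itself. CpG-rich promoters are usually kept free of DNA methylation, and the ADD domain of the de novo DNA methyltransferases binds histone H3 tails that lack methylation on this lysine. Transcribed gene bodies and their 3′ ends are usually methylated in embryonic stem cells.

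The following 5 promoter stretches show the range of the members at gene starts. They are the 250 bases before the annotated start in RefSeq's GRCm38.p6 sequence, printed 5′ to 3′ on the gene's strand with each CpG in capitals. Bckdha (the E1 alpha subunit of the branched-chain ketoacid dehydrogenase; chr7:25658762-25659011, minus strand) and Nfe2l1 (a transcription factor that drives proteasome genes; chr11:96829969-96830218, minus strand) lead the members with the lowest methylation. Slc1a7 (a glutamate transporter; chr4:107968156-107968405, plus strand) and Calhm1 (an ion channel subunit; chr19:47144175-47144424, minus strand) are from the members with the highest. Cluh (an RNA-binding protein for messages of mitochondrial proteins; chr11:74649254-74649503, plus strand) leads the peaks with lower methylation in the side toward the start.
Bckdha: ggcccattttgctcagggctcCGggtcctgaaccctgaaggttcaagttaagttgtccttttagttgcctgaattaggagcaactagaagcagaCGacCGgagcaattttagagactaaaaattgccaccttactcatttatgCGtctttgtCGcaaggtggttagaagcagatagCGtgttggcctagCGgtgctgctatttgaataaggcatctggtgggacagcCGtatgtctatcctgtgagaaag
Nfe2l1: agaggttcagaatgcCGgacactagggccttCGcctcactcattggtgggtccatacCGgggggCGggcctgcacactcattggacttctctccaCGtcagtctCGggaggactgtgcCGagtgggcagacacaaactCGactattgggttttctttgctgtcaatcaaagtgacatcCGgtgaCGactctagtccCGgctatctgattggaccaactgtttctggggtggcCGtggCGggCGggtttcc
Slc1a7: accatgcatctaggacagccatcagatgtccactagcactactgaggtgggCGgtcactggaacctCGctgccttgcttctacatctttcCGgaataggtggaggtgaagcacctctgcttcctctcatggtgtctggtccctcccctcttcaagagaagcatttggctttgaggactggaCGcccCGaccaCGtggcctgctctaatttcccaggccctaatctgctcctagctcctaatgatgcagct
Calhm1: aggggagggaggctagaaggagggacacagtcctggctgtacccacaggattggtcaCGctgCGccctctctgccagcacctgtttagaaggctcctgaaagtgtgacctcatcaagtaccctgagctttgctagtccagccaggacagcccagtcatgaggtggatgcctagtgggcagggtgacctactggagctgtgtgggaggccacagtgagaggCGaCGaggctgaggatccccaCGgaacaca
Cluh: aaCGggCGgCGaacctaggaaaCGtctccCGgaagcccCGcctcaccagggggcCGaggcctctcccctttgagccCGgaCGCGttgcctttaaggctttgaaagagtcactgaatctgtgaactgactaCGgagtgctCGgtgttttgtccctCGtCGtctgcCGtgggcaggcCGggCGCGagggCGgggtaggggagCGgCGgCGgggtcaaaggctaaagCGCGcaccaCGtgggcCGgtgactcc
These stretches hold 8, 14, 6, 5 and 26 CpGs. In H3K4me1 run 2, the Bckdha stretch had 0 methylated of 42 calls at 6 of its CpGs, which allows a level of up to 7.14%. The Nfe2l1 stretch had 0 of 73 calls over all 14 CpGs (up to 4.11%), and the Cluh stretch had 0 of 69 calls over all 26 (up to 4.35%). The Slc1a7 stretch had 7 calls over 5 CpGs, each methylated (95% Wilson interval 64.6 to 100%), and the Calhm1 stretch had 3 calls, 2 of them methylated. The low stretches are thus well covered and the high ones thinly covered.

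Members as a whole were sparsely methylated in every bisulfite sample. Their pooled level, the methylated share of all calls, was 19.2% in H3K4me1 run 1 and 19.8% in run 2. Run 1 and run 2 of H3K9me3 gave 19.1% and 18.8%. H3K27me3 gave 11.0% at 4000 cells, 11.5% at 20000, 13.0% at 100000 and 13.3% at 250000. The H3K4me1 levels rest on 225375 and 433928 calls and varied over the 19 chromosomes with an SD of 1.36 and 1.39 percentage points. The members lack the other marks by choice, and the H3K9me3 and H3K27me3 libraries read them shallowly, with 14323 calls in H3K9me3 run 2 and 1139 in the 4000-cell library. A median member had 85.0 calls in H3K4me1 run 2 and 11.0 in the 250000-cell H3K27me3 library.

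Peaks inside genes and between genes were more methylated than the members as a whole in each of the 6 libraries. In H3K4me1, with the runs averaged, members stood at 19.5% against 35.4% for gene-body peaks and 28.7% for peaks between genes. In H3K9me3 the same 3 levels were 18.9%, 43.0% and 36.5%, and in H3K27me3 from 250000 cells they were 13.3%, 36.7% and 34.4%. The members were lower than gene-body peaks by a mean of -21.4 ± 2.89 percentage points (SD, n = 6 libraries, range -24.0 to -15.9; exact two-sided sign-flip permutation test, p = 0.0312, adjusted p = 0.0312 over 4 comparisons). Against peaks between genes the difference was -18.2 ± 4.6 points (SD, n = 6, range -21.1 to -9.17; the same exact permutation test, adjusted p = 0.0312), lower in 6 of 6 libraries. This is the smallest p that 6 libraries allow. Leaving out the 4000-cell library kept the differences at -21.4 and -17.8 points but raises the smallest possible p of the exact test to 0.0625. With only CpGs of at least 5 calls they were -22.7 and -15.4 points (adjusted p = 0.125, exact permutation), the second over 5 libraries. The -22.7 includes -50.0 points in the 4000-cell library, at 0% against 50.0%. In each other library both differences were smaller in size than without this filter, at -11.7 and -5.52 points in H3K4me1. All libraries come from the same line of cells and read the same peaks, and several are of H3K27me3. These p-values thus reflect only that the libraries share a direction, and they do not measure a spread between cultures or animals.

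Members at gene starts were lower than members at 3′ ends in every sample. They were at 13.9% and 14.5% for H3K4me1 (run 1, then run 2), 11.4% and 11.5% for H3K9me3, and 7.35%, 7.93%, 8.47% and 8.63% in H3K27me3 from the fewest to the most cells. Members at 3′ ends were at 31.3% and 31.4%, at 41.9% and 40.1%, and at 40.4%, 24.4%, 30.1% and 29.7% in the same order. The ranges of the 8 samples did not overlap. The difference, start minus 3′ end, was -23.1 ± 6.71 points (SD, n = 6 libraries, range -33.0 to -16.5; exact two-sided sign-flip permutation test, adjusted p = 0.0312), with start peaks lower in 6 of 6 libraries. With only CpGs of at least 5 calls it was -8.65 points over the 5 libraries that had such CpGs in both groups, with both groups at 0% in the 4000-cell library (adjusted p = 0.125, exact permutation). Members at genes without a strand lay between, at 21.3% in H3K4me1 and 17% in H3K27me3 from 250000 cells. Against peaks between genes, members at 3′ ends were higher in H3K4me1 (31.4% and 28.7%), H3K9me3 (41.0% and 36.5%) and H3K27me3 from 4000 cells (40.4% and 31.3%). They were lower in H3K27me3 from 20000 (24.4% and 31.6%), 100000 (30.1% and 33.9%) and 250000 cells (29.7% and 34.4%). Against peaks inside genes they were higher only at 4000 cells (40.4% and 32.7%), on 109 calls.

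**Figure D1:**
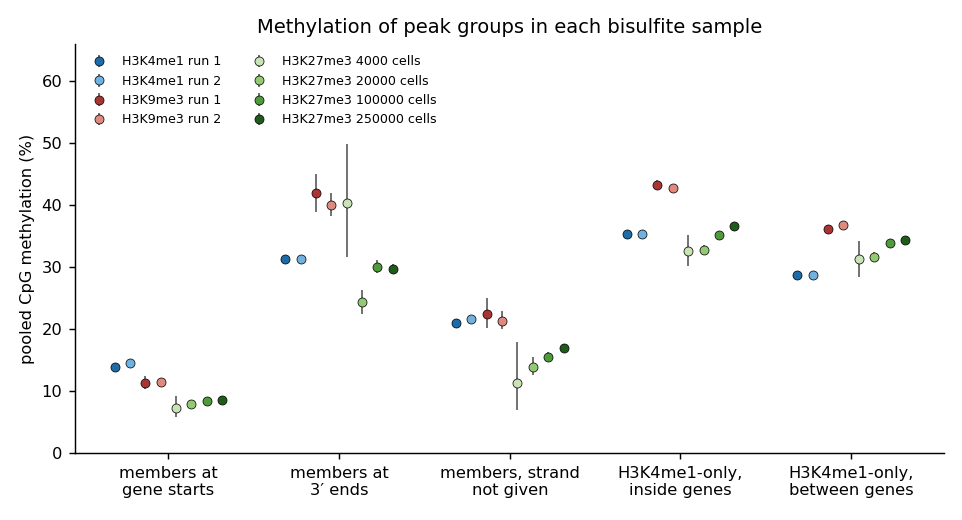
Pooled CpG methylation (percent, vertical axis) of 5 groups of H3K4me1-only peaks in the 8 bisulfite samples, as points with 95% Wilson intervals, which cover counting error only. Members at gene starts sit between 7.35 and 14.5% in all samples, and members at 3′ ends between 24.4 and 41.9%.

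Single peaks showed the same split. Among members with at least 10 calls in H3K4me1 run 2, the median peak level was 9.09% at gene starts and 34.7% at 3′ ends, beside 40% for peaks inside genes and 31.6% for peaks between genes. Of all members with that many calls, 54.4% were under 20% and 0.638% were over 80%. Single CpGs with at least 10 calls were also mostly low: 75.4% of 4056 CpGs in start members were under 20%, and 52.6% had no methylated call. In 3′-end members 60.6% of 2007 CpGs were under 20% and 36.2% lay between 20 and 80%. Peaks between genes had 62.7% of 21817 CpGs under 20%, and peaks inside genes 53.1% of 27599, so mostly low CpGs are not particular to members.

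**Figure D2:**
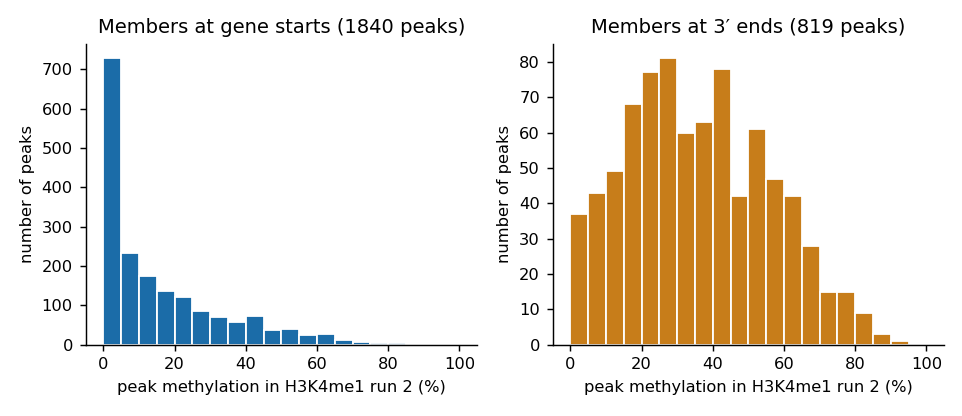
Number of members (vertical axis) by peak methylation in H3K4me1 run 2 (percent, horizontal axis, bins of 5 points), for peaks with at least 10 calls. Start members pile up at the lowest levels around a median of 9.09%, and 3′-end members spread around a median of 34.7%.

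Members were denser in CpGs than the other H3K4me1-only peaks, with a median of 20.4 CpGs per kb against 12 inside genes and 12.2 between genes. Start members had 25.7 per kb and 3′-end members 15.4. Their widths were alike, at a median of 975.0 bp for members, 959.0 bp inside genes and 1016 bp between genes. Methylation fell with density within the members, from 34.8% under 10 CpGs per kb to 28.5%, 18.5% and, at 40 or more, 4.17% in H3K4me1 run 2. At 40 or more per kb, start members were at 3.33%, 3′-end members at 19.5% (28 peaks), peaks inside genes at 14.7% and peaks between genes at 8%. At 20 to 40 per kb the same 4 levels were 14.9%, 28.3%, 32.4% and 23.9%. Under 10 per kb they came to 31.9%, 35.0%, 39.3% and 30.8%, so the start members were no longer the lowest group there. These bins are descriptions without a test.

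**Figure D3:**
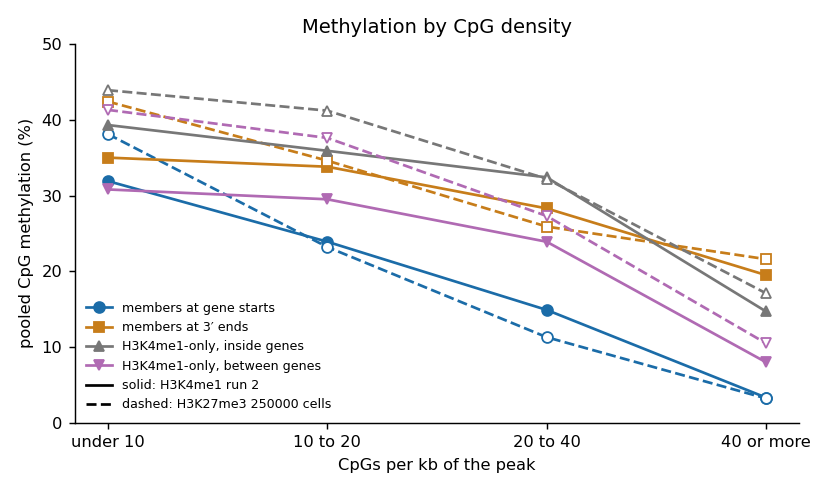
Pooled CpG methylation (percent, vertical axis) by CpG density of the peak (CpGs per kb, 4 bins, horizontal axis) in H3K4me1 run 2 (solid) and H3K27me3 from 250000 cells (dashed). All 4 groups fall from the sparsest to the densest bin, and start members reach 3.33% in run 2.

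Along the gene, methylation formed a trough at the starts. Around 1710 gene starts with a member, all CpGs within 3000 bp were pooled in bins of 200 bp, peak or not. In H3K4me1 run 2 the level was 31.8% in the first bin, 2.69% in the 200 bp before the start and 4.16% in the 200 bp after it, and 37.0% in the last bin. H3K27me3 from 250000 cells went from 48.1% to 2.80% and 3.72% and back to 37.7%, and H3K9me3 run 2 from 56.8% to 2.75% and 5.42% and back to 67.6%. The lowest bin was the one just before the start in each of these 3 samples. H3K4me1 calls per CpG dropped past the start, from 2.72 in the 200 bp before it to 1.04 in the bin from 400 to 600 bp after it, while the number of CpGs per start peaked at 15.5. Around 828 gene 3′ ends with a member there was no trough: the run 2 level stayed between 28.2 and 41.4%, with 40% just before and 39.4% just after the end.

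**Figure D4:**
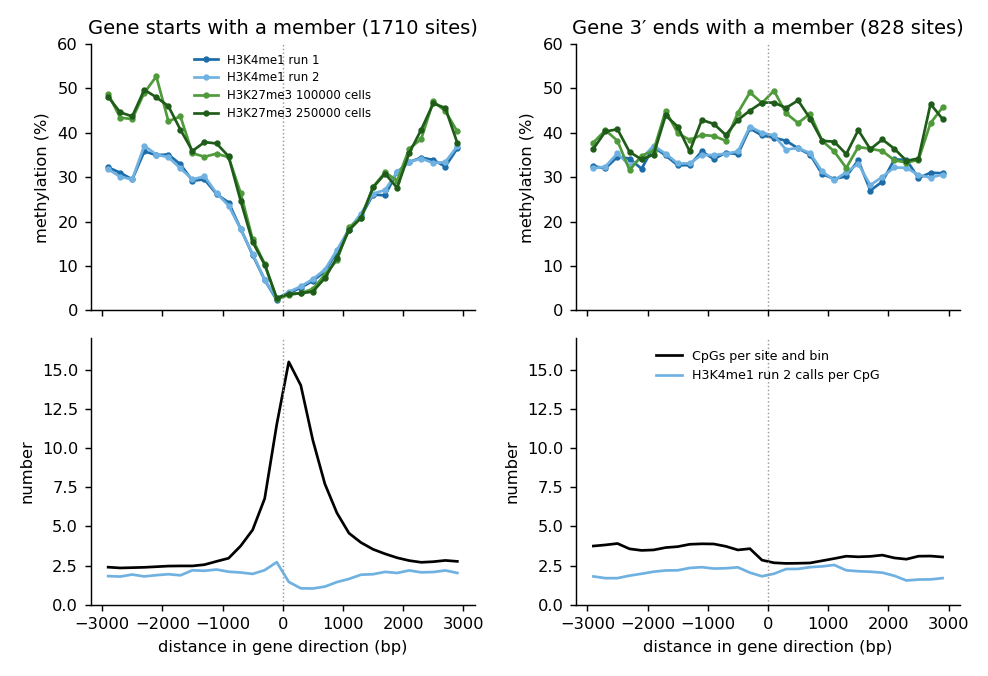
Upper panels: methylation (percent) against distance from gene starts (left) or 3′ ends (right) with a member, in bins of 200 bp in the direction of the gene, in 4 samples. Lower panels: CpGs per site and bin, and H3K4me1 run 2 calls per CpG. The level drops to 2.69% just before the start in run 2, and stays at 28.2% or above around 3′ ends.

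The trough was also visible inside the start members. Each peak was cut at its midpoint into a side toward the gene start (or holding it) and a side away from it. The side toward the start was at 9.30% and the side away at 21.4% in H3K4me1. The values were 7.14% and 20.5% in H3K9me3, and 5.82% and 14.0% in H3K27me3 from 250000 cells. The side toward the start was lower in 6 of 6 libraries, by -10.0 ± 2.44 points (SD, n = 6, range -13.4 to -7.44; exact two-sided sign-flip permutation test, adjusted p = 0.0312). With only CpGs of at least 5 calls the difference was -2.63 points over 5 libraries, of which the 4000-cell library had 0% in both sides (adjusted p = 0.125, exact permutation). Peak by peak, the sides were compared with Fisher's exact test in H3K4me1 run 2, adjusted by Benjamini-Hochberg over all H3K4me1 peaks with 10 calls in each side. Of 2639 members tested, 1033 were called at adjusted p of 0.05 (39.1%, against a background of 41.5% of all peaks), so unequal sides are not particular to members. The called start members shared a direction: of 1498 tested, 569 were called, 478 with the side toward the start lower and 91 with it higher. Of 641 members at 3′ ends tested, 246 were called, with 123 lower and 123 higher toward the end. The median difference in start members was -0.619 points in peaks under 1000 bp wide and -15.9 points in peaks of 2000 bp or more.

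Cluh, Polr2e (a shared RNA polymerase subunit), Nde1 (a centrosome protein), Nfyb (a subunit of the CCAAT-binding factor NF-Y) and Zbed4 had the largest called differences with the side toward the start lower. In run 2 the Cluh peak was at 1.27% of 79 calls toward the start and 90.0% of 10 calls away from it. Run 1 gave 0 and 90.0% for the same sides. The gene table puts the Cluh start inside this peak, 574 bp from its nearer edge and close to its midpoint, whereas the printed stretch ends at the start of the promoter table, just past the peak. Zbed4 had the most calls of these, with 1.72% of 349 toward and 76.9% of 39 away. Zfp57 (a zinc finger protein that protects imprints), Max (the partner of Myc), Vegfb, Ipo5 and Slc5a4a led in the opposite direction. Zfp57 was at 68.4% of 38 calls toward the start and 7.35% of 136 away, and Max at 62.9% of 62 and 4.93% of 284. These peaks were chosen for the difference, so the values are a description.

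**Figure D5:**
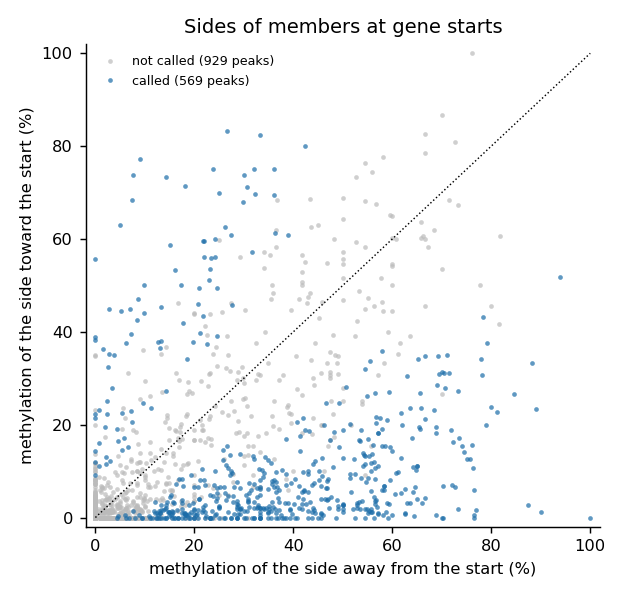
Each point is a start member with at least 10 calls in each side in H3K4me1 run 2, by the methylation (percent) of the side away from the start (horizontal axis) and toward it (vertical axis), with the line of equality dotted. Called peaks (569, blue) lie mostly under the line, 478 against 91.

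Start members that crossed the start were the least methylated. The 922 that crossed it were at 11.7% in H3K4me1 run 2, against 17.3% for 490 wholly upstream and 21.0% for 480 wholly inside the gene. Median density was 34.7, 18.4 and 19.2 CpGs per kb in these groups. In H3K27me3 from 250000 cells the levels were 7.15%, 11.0% and 10.6%, so there the upstream and downstream peaks were close. At 3′ ends, the 329 peaks wholly inside the gene were at 33.8%, the 262 across the end at 29.6% and the 290 beyond the gene at 30.3% in run 2.

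An annotated promoter window (250 bases before to 50 after a RefSeq start, any gene type) overlapped 1091 of the start members, which were at 11.3% in run 2, against 22.2% for the 801 with none. Of the 3′-end members, 30 overlapped such a window and were at 24.6%, against 31.9% for the other 851. In promoters of protein-coding genes, letters of 6 motifs were searched on both strands of the 300 bases of the window. Of 20085 promoters, 47.0% held GGGCGG (the GC box), against 66.5% of the 1279 that overlapped a start member. By member level in run 2 the share was 74.5% of 675 promoters under 5%, 60.9% of 532 from 5 to 40%, and 36.5% of 63 at 40% or more. The median number of CpGs in these 3 groups fell from 21.0 to 15.0 and 6, and GGGCGG itself holds a CpG. CCGGAAG (an ETS site) was in 20.1%, 15.8% and 7.94% of them and in 11.9% of all promoters. CCAAT, which holds no CpG, was in 44.3%, 36.1% and 41.3%, with 38.1% in all. TATAAA (the TATA box) was in 5.04%, 7.33% and 9.52%, below the 12.7% of all promoters. CACGTG (an E box) was in 10.8% of promoters at start members and 7.89% of all, and TGACGTCA (a cAMP response element) in 2.66% and 2.3%. Of the printed stretches, Nfe2l1, Slc1a7 and Cluh hold GGGCGG, and Nfe2l1 and Calhm1 hold CCAAT.

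Named members show the extremes. Among start members with at least 50 calls in run 2 and 20 in run 1 (1343 peaks), 158 had no methylated call in run 2, and 44 were over 50%. Bckdha (peak chr7:25658626-25659395) had 0 of 280 calls methylated in run 2, which allows up to 1.07%, and 0 of 143 in run 1. Its promoter stretch lies inside this peak. Nfe2l1 had 0 of 251, 1700016H13Rik 0 of 238, Slc35e1 0 of 223 and Add1, a cytoskeletal adducin, 0 of 208. In H3K27me3 from 250000 cells these 5 peaks also had no methylated call, in 32 to 97 calls each. At the other end, Slc1a7 (chr4:107968081-107970378) was at 78.3% in run 2 (interval 67.2 to 86.4%, 69 calls), 78.1% in run 1 and 81.2% of 32 calls in H3K27me3 from 250000 cells. Calhm1 was at 70.6% of 119 run 2 calls and 77.4% of 53 run 1 calls. Ubxn7 was at 72.0%, Armt1 at 69.5% and Arrdc5 at 69.0% in run 2. The high peaks had 11.9 to 22.1 CpGs per kb and the low ones 59.7 to 140.

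At 3′ ends, Rhbdd2 was the highest, at 92% of 50 run 2 calls and 87.5% of 32 run 1 calls. Apela, a peptide ligand of the apelin receptor, was at 78.2% and 88.2%, followed in run 2 by Nlrx1 at 72.0%, Ndrg4 at 70.0% and F2r, the thrombin receptor, at 70.0%. The lowest were Gm46933 with 0 of 155 calls, Mrpl58 with 0 of 110, Dpm3 with 0 of 93, Wwc1 with 0 of 77 and Odaph with 0 of 65. The Gm46933 peak overlaps the promoter window of G3bp2, a gene whose end it also meets, and the Dpm3 peak overlaps the promoter window of Dpm3 itself. The other 3 overlap no promoter window.

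The members with the most calls were large peaks at levels from 9.27% to 27.7% in run 2. Brd1, a bromodomain protein, was at 25.3% of 1181 calls in run 2 and 26.4% in run 1. H3K27me3 gave 22.1% of 95 calls at 250000 cells and 23.6% of 55 at 100000 for this peak. Slc38a2, an amino acid transporter, was at 9.27%, 8.30%, 4.26% and 0% of 25 calls (up to 12%) in the same order, and Zbtb22 at 11.0%, 10.3%, 2.92% and 10.6%. The Kank2 3′ end was at 27.7% and 28.6% in H3K4me1, and at 19.2% of 52 calls and 46.3% of 41 in H3K27me3. Ptges, a prostaglandin synthase, was at 14.6% and 15.0%, and at 27.9% of 43 calls and 70.6% of 17. The H3K27me3 libraries thus lay on either side of H3K4me1 for Kank2.

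The members fell on 3237 of 20665 protein-coding genes (15.7%). By gene list, they were at 52 of 81 ribosomal protein genes (64.2%), 20 of 75 mitochondrial ribosomal protein genes, 7 of 38 proteasome genes, 9 of 16 glycolysis genes, 7 of 29 replication genes and 8 of 12 genes of LIF and STAT3 signalling. They were at 2 of 1100 olfactory receptor genes and 0 of 25 germline genes. Any H3K4me1 peak at an end was found for 60, 25, 9, 12, 8, 9, 3 and 2 genes of these lists in the same order, and for 5824 of all 20665 genes (28.2%). The shares at proteasome genes (23.7%) and replication genes (27.6%) were near that of all genes. In the other lists, members were at 3 of 17 liver genes (17.6%) and 54 of 360 genes named Zfp (15.0%), near the 15.7% of all genes. They were at 5 of 16 genes of H3K4 methyltransferases and demethylases (31.2%). Any H3K4me1 peak at an end was found for 3, 77 and 8 genes of these lists. Median member level in run 2 was 16.8% over all members. Of the lists above, it was higher at ribosomal protein (24.4%), glycolysis (17.9%) and LIF and STAT3 genes (20.7%). It was higher at genes of H3K4 methyltransferases and demethylases (19.1%, 5 members), liver genes (27.8%, 3 members) and olfactory receptors (36.9%, 2 members). The median was lower at mitochondrial ribosomal protein (15.3%), replication (14.2%), Zfp (11.6%) and proteasome genes (11.1%). These counts are descriptions.

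Among pluripotency factors, 11 of 20 genes had members and 19 had an H3K4me1 peak of any kind. Sox2 had 0 of 83 calls methylated in run 2 (up to 3.61%) in its start peak, and 0 of 48 in run 1. Utf1 was at 2.94% and Klf2 at 7.84% at their starts, while the Klf2 3′ end was at 23.0%. Nanog had a pair of peaks at its 3′ end, at 39.1% (interval 33.6 to 45.0%) and 36.4% (27.1 to 46.8%). Zfp42 was low on both sides, at 1.64% of 61 calls at the start and 4.72% of 127 calls in its better-read 3′ peak.

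In LIF signalling, Stat3, the transcription factor of the pathway, had 0 of 84 calls methylated at its start (up to 3.57%). Il6st, which encodes the shared receptor gp130, had peaks at 19.1% and 22.3%, and Lifr, the LIF receptor, was at 51.4% of 35 calls. The ligand Lif was at 48.0% of 25 calls at its start, and the target Myc at 1.25% of 401. Of the DNA methylation enzymes, 2 of 10 had members. Tet1, which oxidises methylated cytosine, was at 1.56% of 128 calls at its start. Uhrf1, which guides DNMT1 to hemimethylated DNA, had start peaks at 0 of 137 calls and at 27% of 122, and a 3′ peak, also at a gene without strand, at 12.4% of 233.

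Some genes had a member at each end. Over the 145 genes with a start member and a member at the 3′ end only, with at least 50 run 2 calls at each, the start was lower in 124 and higher in 21, with a median of 6.74% at starts and 32.6% at 3′ ends. Eno1, a glycolytic enolase, was at 4.12% and 18.8%, and Rps24 at 2.20% and 31.6%. Zfp57 ran the other way, at 20.7% of 174 calls at its start and 11.7% of 94 at its 3′ end, as did Zfp653 at 10.1% and 3.8%. Gapdh was at 20.5% (15.0 to 27.3%) at its start and 26.6% (22.5 to 31.2%) at its 3′ end, where a gene without strand also has an end. Pold1, the catalytic subunit of DNA polymerase delta, was at 5.16% of 310 calls at its start and 61.7% of 381 at its 3′ end, but the second peak also lies at the start of another gene and counts as a start member. The genes named here were picked from the lists after their values were seen.

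Differences between the libraries of different marks were few. Fisher's exact test of H3K27me3 from 250000 cells against H3K4me1 run 2 called 68 of 1856 members tested (3.66%), 32 higher and 36 lower in H3K27me3, against a background of 9.47% of all H3K4me1 peaks (4.23% higher, 5.24% lower). The background holds peaks that carry the other marks. H3K4me1-only peaks inside genes gave 133 higher and 35 lower of 3304 (5.08%), and those between genes 134 higher and 13 lower of 2766 (5.31%). Those shares are nearer to that of the members, and their calls were mostly higher in H3K27me3. The difference between these groups of peaks was not tested. With 1 library on each side the test compares these libraries, not the marks. Start members gave 10 higher and 26 lower of 1132, and 3′-end members 14 higher and 5 lower of 366. Restricted to CpGs called in both libraries, 23 of 1779 members were called (1.29%, against 7.05% of all peaks), 17 higher and 6 lower. Of the 68 members, 51 could also be tested with the 100000-cell library in place of the 250000-cell one, and 42 kept their sign. That library called 41 of 1404 members (2.92%, against 9.97% of all peaks), of which only 7 were among the 68. The 7 were Ercc6l2, Cbx7 (a Polycomb protein) and Hspg2 (perlecan), higher in H3K27me3, and Mknk2, Sco2, Rab1b and Cacna1a, lower. The Ercc6l2 3′ end was at 14.7% in H3K4me1 run 2, 41.7% at 100000 cells and 44.9% at 250000, and was also called over shared CpGs (Fisher's exact test, adjusted p = 0.000531). Rab1b was at 27.7%, 8.82% and 7.62% and was also called there (Fisher's exact test, adjusted p = 0.0221). Over shared CpGs Mknk2, Sco2, Hspg2 and Cacna1a were not called, at differences of -7.56, 1.68, 8.97 and -2.80 points, and Sco2 thereby changed sign from -12.4. Cbx7 had too few shared calls to test.

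At the Fgfr4 3′ end the H3K27me3 libraries from 100000 and 250000 cells differed, and at Get1 both lay below H3K4me1. The Fgfr4 3′ end was at 26.5% in H3K4me1 run 2 and 79.3% of 29 calls in H3K27me3 from 250000 cells, but 31.0% of 71 calls at 100000 cells. Get1, which inserts tail-anchored proteins into the endoplasmic reticulum, was at 26.9% of 386 calls in H3K4me1 and at 0 of 100 calls (up to 3%) in H3K27me3 from 250000 cells, with 6.45% of 31 calls at 100000 cells. Of those 100 calls, 95 lay in the side toward the start. Its H3K4me1 calls were at 8.60% in the side toward the start and 51.5% in the side away.

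H3K9me3 run 2 against H3K4me1 run 2 called 21 of 456 members (4.61%; background 10.6%), 17 higher and 4 lower in H3K9me3 (background 10.3% and 0.330%). H3K4me1-only peaks inside genes gave 80 higher and 2 lower of 910 (9.01%), and those between genes 87 higher and 0 lower of 1353 (6.43%). Eid3 was at 2.56% of 78 calls in H3K4me1 and 80% of 10 in H3K9me3 run 2, with 78.6% of 14 in run 1. Ppp1r2 was at 1.09% of 92 calls in H3K4me1 and at 11 of 11 calls in H3K9me3 run 2, but at 0 of 6 in run 1. Between the 100000-cell and 250000-cell H3K27me3 libraries, 10 of 1251 members were called (0.799%, against a background of 0.724%), 4 higher and 6 lower at 100000 cells (background 0.326% and 0.399%), which is near the background.

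Most members were found in each H3K4me1 peak list. The run 1 list held 83.4% of them, the run 2 list 74.8% and the control list 75.9%, and 1988 (58.0%) were in all 3. A further 435 were in neither bisulfite list, so bisulfite calls at those rest on regions that neither bisulfite run called as a peak. At the distance limit, the 238 members in the last 100 bp before 1000 bp from a gene end were at 26.4% in run 2, and the 248 peaks in the next 100 bp beyond it were at 28.4%. At the width limit, the 140 members of 4000 bp or more were at 24.5%, and the 94 otherwise like peaks in the next band of widths above 5000 bp were at 23.2%.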

How the data were processed

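The deposited table gave, for each of 21908008 CpGs and 8 bisulfite samples, whole-number counts of methylated and of total calls, which the authors had not normalized. Peak lists held positions only. Per the submitters' processing notes the build was mm10 and the tools were cutadapt 1.12, Bismark 0.23.0, Bowtie2 2.3.0, HOMER 4.10.3 and bedtools 2.29.2, with no role or order given, and how duplicate reads were treated is not given in the sources used here. All 395568 CGs of the RefSeq GRCm38.p6 promoter sequences were found as positions in the deposited table.

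Gene ends came from the RefSeq GRCm38.p6 gene table, and strand from the promoter table for 16457 of 20665 genes (the other 4208 had none, including chromosome 18, for which no strand was used here). The planned stand-in for strand, the end denser in CpGs, was kept as an added alternative, since it matched the table's 5′ end in 78.2% of genes. Exon and UTR positions were not used here. Every count column was used (0 left out). A level is methylated calls over all calls. Calls of 1 fragment and PCR copies are not independent, so 95% Wilson intervals and the limits given for a count of 0 (3 counts of the total) cover counting error only. Groups of peaks were compared over 6 libraries (runs of a mark averaged) by exact two-sided sign-flip permutation, adjusted by Benjamini-Hochberg over 4 comparisons. Single peaks were compared by Fisher's exact test over all H3K4me1 peaks on chromosomes 1 to 19 with at least 10 calls on each side. On simulated calls with 200 peaks changed by 40 points, 66.0% were recovered for H3K27me3 against H3K4me1 and 51.0% for H3K9me3 against H3K4me1.

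Named peaks were, among members with at least 50 calls in run 2 and 20 in run 1, the 5 with most calls, the 5 lowest and 5 highest at gene starts and at 3′ ends, up to 5 largest differences each way between marks (same sign with the other library) and between the sides of a peak, and members at listed genes. The peaks called with both H3K27me3 libraries were named after their values were seen. The members and lists were chosen with earlier results of these data known. The coverage minimum, run, library, width, distance and averaging were varied. Python 3.11.15, numpy 2.4.6, scipy 1.17.1, pandas 2.3.3 and matplotlib 3.10.9 were used.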

Additional observations from a re-analysis of the deposited data

How the results depend on the processing

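Between marks, no paired analysis was possible because the replicate numbers of H3K4me1 and H3K9me3 are sequencing runs of 1 library per mark. No test between marks over replicates was made. The comparisons between groups of peaks, and between the sides of start members, were instead paired within each library. The differences between groups of peaks kept their direction in each alternative but lost the threshold under 2 of them. With CpGs of at least 5 calls, members differed by -22.7 points from gene-body peaks, -15.4 from peaks between genes, -8.65 between gene starts and 3′ ends and -2.63 between the sides of start members (adjusted exact permutation p = 0.125). That filter left 5 libraries for 3 of them, and the -22.7 includes -50.0 in the 4000-cell library (0% against 50.0%). Without the 4000-cell library and with all CpGs, the differences were -21.4, -17.8, -21.2 and -9.88 points (exact permutation p = 0.0625, the smallest for 5 libraries). Taking the CpG-denser end as the start of genes without strand, an alternative chosen after seeing the data, gave -22.9 points between starts and 3′ ends and -10.2 between sides. Methylation fell with CpG density within the members, so this choice of start is not independent of the levels compared.

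Levels moved with the CpGs and peaks included. The H3K4me1 level of 19.5% became 20.3% as a mean of single CpGs, 18.0% with at least 5 calls per CpG, 17% with edges within 500 bp and 15.7% at widths under 2 kb. For H3K9me3 the level of 18.9% became 19.3%, 6.09%, 16.1% and 14.8% in the same order, and 19.1% when the whole peak lay within 1000 bp. H3K27me3 from 4000 cells went from 11.0% to 0% with 5 calls and 9.05% under 2 kb. From 20000 cells, 11.5% became 12.3%, 5.01%, 9.54% and 9.07%, from 100000 cells 13.0% became 15.1%, 5.71%, 10.7% and 10.6%, and from 250000 cells 13.3% became 15.5%, 7%, 11.1% and 10.9%, with 13.7% for whole peaks within 1000 bp. The causes were not tested.

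Counts of called members moved with the settings, and the causes were not tested. For H3K27me3 against H3K4me1, the 32 higher became 21 with at least 20 calls, 17 over shared CpGs, 18 without replicate 2 (run 1 in its place) and 15 with the 100000-cell library, and the 36 lower became 16 with a difference of 20 points and 6 over shared CpGs. More members were thus called lower than higher in the analysis as reported, and more higher than lower with at least 5 calls (34 and 30), with a difference of 20 points (29 and 16) and over shared CpGs. Of members tested, 5.15% were called with at least 20 calls (13.4% of all peaks), 1.29% over shared CpGs (7.05%), 2.41% without replicate 2 (6.90%) and 2.92% with the 100000-cell library (9.97%). For H3K9me3, the 17 higher became 9 with at least 20 calls and 8 without replicate 2, and the 4 lower became 2 with a difference of 20 points, 0 over shared CpGs and 0 without replicate 2. Between the H3K27me3 cell numbers, 4 higher and 6 lower became 0 and 0 over shared CpGs (Fisher's exact test). Members with unequal sides went from 1033 of 2639 tested to 650 of 1966 without replicate 2 (33.1%, against 35.3% of all peaks). The other 56 values kept their direction and side of the threshold, or stayed within the spread or 1.5 times the count.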
